A study of Rattus norvegicus with 6 samples.

Results

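Of the 763 mature rat miRNAs counted in plasma exosomes, 9 are described here: rno-miR-423-5p, rno-miR-423-3p, rno-miR-328a-3p, rno-miR-671, rno-miR-1249, rno-miR-149-5p, rno-miR-6328, rno-miR-193b-5p and rno-miR-219a-1-3p. They were selected on the counts themselves, because a strand of each precursor was lower in the RIPC libraries than in the control libraries after TMM scaling, and rno-miR-423-3p was kept as the opposite arm of rno-miR-423-5p. The difference between the groups is therefore a description of how they were picked, and no p-value of any of the 9 is given for it. Where the 9 are counted against a p threshold, the count or share of all tested miRNAs is given too, and nothing is read from the count. All 9 passed the filter on low counts and belong to the 404 tested miRNAs.

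The libraries came from young adult male Sprague-Dawley rats. C-exo denotes exosomes from the plasma of control rats that received no remote ischemic pre-conditioning (RIPC), and R-exo those of rats in the late phase after RIPC, 3 libraries each. RIPC was 4 cycles of 5 min of ischemia and 5 min of reperfusion, made with rubber bands on both hind limbs under anesthesia. Blood was drawn from the abdominal aorta of anesthetized rats in both groups after 48 h, and exosomes were pelleted by differential centrifugation of the plasma. Whether a library holds the plasma of a single rat is not stated, so the spread between libraries may be partly technical. Fewer vesicles from one source and less RNA per vesicle cannot be told apart in such libraries.

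A miRNA precursor is a hairpin whose 2 arms give the 5p and 3p mature strands. One strand is usually kept by an Argonaute protein as the guide that pairs with target transcripts through its seed, bases 2 to 8, and the other is mostly degraded. Plasma vesicles carry miRNAs from blood cells, vessels, liver and other organs. Among the miRNAs described here, miR-423-5p is known as a circulating miRNA that is raised in the plasma of patients with heart failure, and miR-328 as a regulator of the L-type calcium channel in atrial muscle. The 5p strand of miR-671 is known for directing the cleavage of the circular RNA CDR1as, but the strand counted here as rno-miR-671 is the one from the 3′ side of the hairpin. miR-193b and miR-219a each have a better known opposite arm, and miR-219a-5p promotes the differentiation of oligodendrocytes.

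The mature sequences are shown because the fold changes are compared with their content of G and C. RefSeq (rat assembly GRCr8) gave a mature sequence for 7 of the 9, and none for miR-423-3p and miR-328a-3p. Each is written 5′ to 3′ with the seed in capitals.
rno-miR-423-5p: uGAGGGGCagagagcgagacuuuu
rno-miR-193b-5p: gGGGUUUUgagggcgaga
rno-miR-1249: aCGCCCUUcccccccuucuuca
rno-miR-671: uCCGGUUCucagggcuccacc
rno-miR-149-5p: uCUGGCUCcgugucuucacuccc
rno-miR-6328: aGGCCUGCucugagcccccgc
rno-miR-219a-1-3p: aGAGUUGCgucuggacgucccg

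The 7 seeds were all different, and 0 of the other tested miRNAs with a sequence shared any of them. Composition differed within the 7. miR-423-5p and miR-193b-5p were rich in G, with 10 G in 24 bases and 10 G in 18 bases. miR-1249 was rich in C, with 13 C and 1 G in 22 bases, and miR-671, miR-149-5p and miR-6328 had 9, 10 and 10 C. miR-219a-1-3p had 8 G and 6 C. The share of G and C together (GC content) was 54.2% in miR-423-5p, between 60.9% and 66.7% in miR-149-5p, miR-193b-5p, miR-1249, miR-219a-1-3p and miR-671, and 76.2% in miR-6328.

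In GRCr8, miR-423-5p lay at chr10:62412317-62412340 on the minus strand, within the span of the protein-coding gene Nsrp1. miR-671 lay at chr4:11473205-11473225 on the minus strand within Chpf2, and miR-1249 at chr7:117955547-117955568 on the minus strand within Kiaa0930. miR-149-5p lay at chr9:100861814-100861836 on the plus strand within Gpc1, and miR-6328 at chr20:2890159-2890179 on the plus strand within Ppp1r18. miR-193b-5p lay at chr10:1824958-1824975 on the plus strand within the long non-coding RNA LOC102547286. miR-219a-1-3p lay at chr20:4831641-4831662 on the plus strand, outside the span of any other annotated gene. miR-423-5p and miR-193b-5p shared chromosome 10, and miR-6328 and miR-219a-1-3p chromosome 20. The gene table gives spans without exons, so exonic and intronic positions were not told apart, and the submitters' processing notes name another assembly.

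The counts on miRNAs numbered 5484209 to 7531737 per library in C-exo and 6982273 to 7380752 in R-exo. Levels are given as CPM, counts per 1000000 after TMM scaling, and 3 counts corresponded to between 0.369 and 0.672 CPM. C-exo replicate 3 stood apart from the other control libraries. Its log2 CPM lay closer to the average of R-exo than to that of C-exo replicates 1 and 2 for 331 of the 404 tested miRNAs (81.9%). The same held for 7 of the 9 miRNAs described, and their fold changes are given with and without this library.

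miR-423-5p was by far the most abundant of the 9. It held 8.22%, 6.41% and 2.10% of all miRNA counts in C-exo replicates 1, 2 and 3, and 2.89%, 2.11% and 2.17% in R-exo replicates 1, 2 and 3. The Wilson 95% intervals of these shares were at most 0.046 percentage points wide, and they cover the error of counting alone, as amplified reads that carry no molecular identifier are not independent molecules. By count it ranked 3 and 4 among all miRNAs in C-exo replicates 1 and 2, 12 in C-exo replicate 3, and 10, 14 and 13 in the R-exo libraries. After TMM scaling its level was 101014, 57653 and 22532 CPM across the control libraries, against 25029, 21121 and 21080 CPM across the RIPC libraries. C-exo replicates 1 and 2 were above every R-exo library, whereas C-exo replicate 3 lay within the R-exo range. The means were 60399 ± 39313 CPM in C-exo and 22410 ± 2268 CPM in R-exo (SD, n = 3 each). The log2 fold change, R-exo over C-exo, was -1.43 (standard error, SE, 0.53). It was -1.81 without C-exo replicate 3 and -0.95 without C-exo replicate 1.

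miR-423-3p, the opposite arm of the same hairpin, was lower in level than miR-423-5p and followed it. It measured 35235, 21324 and 11318 CPM across the control libraries, against 8904, 10133 and 9476 CPM across the RIPC libraries. All R-exo libraries were below all C-exo libraries, with C-exo replicate 3 the nearest. Its log2 fold change amounted to -1.25 (SE 0.48), -1.56 without C-exo replicate 3 and -0.88 without C-exo replicate 1.

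miR-328a-3p was the next most abundant, with 9138, 3180 and 2218 CPM across the control libraries, against 1452, 1403 and 1471 CPM across the RIPC libraries. The groups did not overlap, and the R-exo libraries were almost equal, with a coefficient of variation of 2.43% against 77.4% in C-exo. The log2 fold change was -1.75 (SE 0.57). The size of this difference rested on C-exo replicate 1, since it was -0.99 without that library and -2.08 without C-exo replicate 3.

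miR-6328 had the largest fold change of the 9, a log2 fold change of -2.05 (SE 0.71). Its level was 723, 247 and 88.8 CPM across the control libraries, against 111, 72.1 and 71.8 CPM across the RIPC libraries. C-exo replicate 3 fell between the R-exo libraries. On the log2 scale the difference became -1.10 without C-exo replicate 1 and -2.50 without C-exo replicate 3.

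miR-149-5p had another order of the control libraries. It measured 319, 186 and 270.2 CPM across the control libraries, against 92.7, 144 and 113 CPM across the RIPC libraries. C-exo replicate 3 was the second highest library here, 0.15 above the mean of C-exo replicates 1 and 2 on the log2 CPM scale, and the groups did not overlap. This gave a log2 fold change of -1.15 (SE 0.43), the smallest of the 9. It was -1.11 without C-exo replicate 3 and -1.01 without C-exo replicate 1.

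miR-671 also kept C-exo replicate 3 with the other controls. It measured 55.6, 32.1 and 33.0 CPM across the control libraries, against 15.0, 15.8 and 11.2 CPM across the RIPC libraries, without overlap. Its log2 fold change amounted to -1.52 (SE 0.45) and ranged from -1.63, without C-exo replicate 3 or 2, to -1.28, without C-exo replicate 1.

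miR-1249 measured 45.7, 29.4 and 18.2 CPM across the control libraries, against 10.3, 8.90 and 15.8 CPM across the RIPC libraries. The groups did not overlap, but C-exo replicate 3 and R-exo replicate 3 were close. This gave a log2 fold change of -1.41 (SE 0.51), -1.67 without C-exo replicate 3 and -1.11 without C-exo replicate 1.

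miR-219a-1-3p measured 169.7, 105 and 36.7 CPM across the control libraries, against 34.0, 31.4 and 42.3 CPM across the RIPC libraries. C-exo replicate 3 was below R-exo replicate 3, so the groups overlapped. Between groups the log2 fold change was -1.53 (SE 0.57), -1.92 without C-exo replicate 3 and -1.09 without C-exo replicate 1.

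miR-193b-5p was the rarest, with 224, 168 and 66 counts in C-exo and 94, 37 and 30 counts in R-exo. This was 50.2, 21.5 and 9.39 CPM across the control libraries, against 11.6, 5.31 and 3.96 CPM across the RIPC libraries. C-exo replicate 3 was below R-exo replicate 1. The counting error alone was wide at this depth, with an exact Poisson 95% interval of 2.67 to 5.65 CPM for R-exo replicate 3. Between groups the log2 fold change was -1.95 (SE 0.70), -1.25 without C-exo replicate 1 and -2.35 without C-exo replicate 3.

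**Figure D1:**
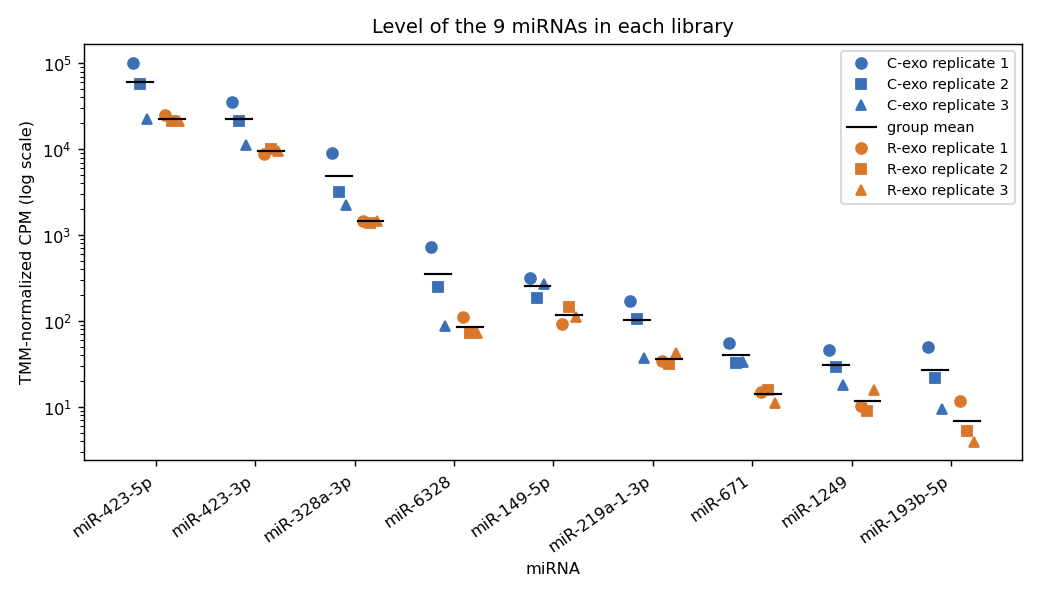
TMM-normalized CPM of the 9 miRNAs on a log axis, with 1 symbol per library, C-exo in blue, R-exo in orange and the group mean as a black line. The C-exo symbols are spread widely and C-exo replicate 3 (blue triangle) lies beside the R-exo symbols for most of the 9, but not for miR-149-5p and miR-671, where it is 270.2 and 33.0 CPM.

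All 9 met the criterion of more than a 2-fold difference at an unadjusted p under 0.05, lower in R-exo, as did 7.43% of all tested miRNAs (30 of 404). Without overlap between the groups and lower in R-exo were 5 of the 9 and 7.92% of all tested miRNAs (32 of 404). Since the same contrast picked the 9, nothing is read from these counts. Adjusted for all 404 tests, 0 miRNAs (0%) had a p under 0.05 in either direction with edgeR's quasi-likelihood test or with DESeq2, and 38 had an unadjusted p under 0.05 with edgeR. Without C-exo replicate 3, 132 of 422 tested miRNAs (31.3%) had an adjusted p under 0.05 with edgeR. With any other library left out, 0 had one. C-exo replicate 3 was singled out by its likeness to R-exo in these same counts, so nothing is read from the 132. The median log2 fold change was -1.52 over the 9 and -0.05 over all tested miRNAs, of which 207 (51.2%) were below 0. Without C-exo replicate 1, the criterion was met by 2 of the 9, miR-671 and miR-149-5p, and in the same direction by 1.64% of all miRNAs tested in that fit. It was met by 8 of the 9 without C-exo replicate 2 (3.57% of all) and by 9 without C-exo replicate 3 (19.4% of all). Leaving out R-exo replicate 1, 2 or 3, it was met by 5, 4 and 6 of the 9, and by 4.04%, 2.62% and 1.88% of all. Each of these fits reuses values that picked the 9, so nothing is read from these counts either, beyond their dependence on single libraries.

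The 9 miRNAs varied more among the control libraries than among the RIPC libraries. The coefficient of variation of CPM was larger in C-exo for all 9, with a median of 64.0% in C-exo and 17.5% in R-exo. It was also larger in C-exo for 81.4% of all tested miRNAs, with medians of 55.3% and 27.5%.

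Over the 6 libraries, the log2 CPM of the 36 pairs among the 9 miRNAs had Pearson's r between 0.625 and 0.990, with a median of 0.906. The closest pair was miR-423-5p and miR-6328, and the least alike were miR-423-5p and miR-149-5p. These are descriptions over 6 libraries that share the difference between groups. The 5 other tested miRNAs most like miR-423-5p were miR-339-3p (r = 0.998), miR-125a-3p (r = 0.995), miR-339-5p (r = 0.994), miR-760-3p (r = 0.989) and miR-23a-5p (r = 0.987). miR-339-3p measured 3211, 1898 and 733 CPM across the control libraries, against 861, 708 and 777 CPM across the RIPC libraries, with a GC content of 65.2%. Of 395 other tested miRNAs, 51 (12.9%) had an r over 0.9 with miR-423-5p.

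The strands of a hairpin are made from one transcript, so their ratio was compared between libraries. miR-423-5p exceeded miR-423-3p by a ratio of 2.87, 2.70 and 1.99 in C-exo and 2.81, 2.08 and 2.22 in R-exo. The ratios overlapped fully, and on the log2 scale they averaged 1.32 ± 0.28 in C-exo and 1.23 ± 0.23 in R-exo (SD, n = 3 each). Both arms of miR-423 thus differed by about the same factor between the groups, a difference of log2 ratios of -0.08 that lay within the spread. Without C-exo replicate 3 this difference was -0.24.

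For miR-193b the ratio of the arms differed between the groups. miR-193b-3p, the better known strand with the sequence below, measured 178, 86.8 and 37.8 CPM across the control libraries, against 74.4, 54.7 and 35.6 CPM across the RIPC libraries.
rno-miR-193b-3p: aACUGGCCcacaaaguccc

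The groups overlapped for miR-193b-3p, with a log2 fold change of -0.88 (SE 0.60, with a Benjamini-Hochberg adjusted p of 0.51 by edgeR). It was -0.29 without C-exo replicate 1 and -1.26 without C-exo replicate 3. The ratio of miR-193b-5p to miR-193b-3p was 0.281, 0.248 and 0.248 in C-exo and 0.156, 0.0971 and 0.111 in R-exo, without overlap. On the log2 scale it averaged -1.95 ± 0.11 in C-exo and -3.07 ± 0.35 in R-exo (SD, n = 3 each). Here C-exo replicate 3 lay with the other controls. The ratio does not depend on the scaling between libraries, but it uses the 5p counts that picked miR-193b-5p and is given without a test.

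**Figure D2:**
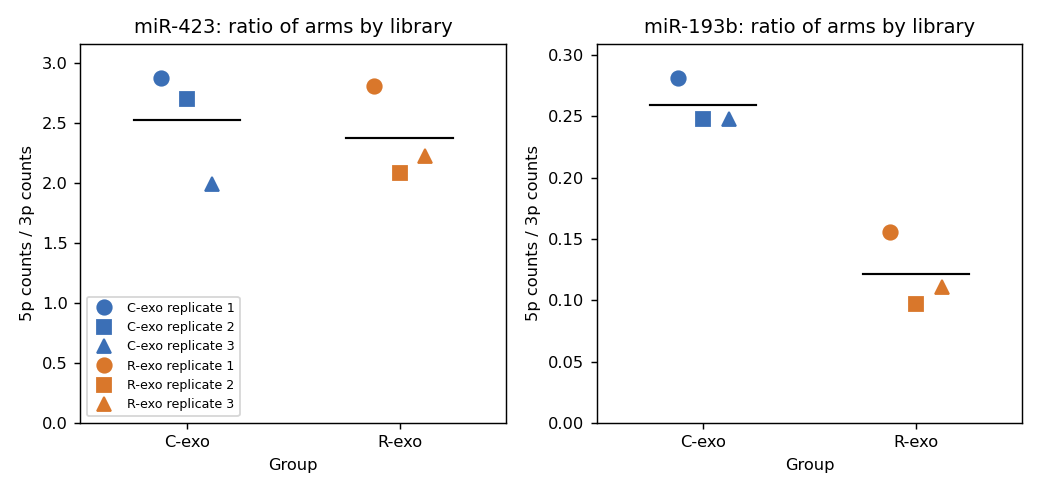
Ratio of 5p to 3p counts in each library for miR-423 (left) and miR-193b (right), with 1 symbol per library and the group mean as a black line. The miR-423 ratios overlap between groups, from 1.99 to 2.87, whereas the miR-193b ratios are 0.248 to 0.281 in C-exo and 0.0971 to 0.156 in R-exo.

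Opposite arms and relatives of the 9 were taken from a list of 18 names set mostly by arm and family rather than by their values. The miR-365 strands on the list are neither opposite arms of the 9 nor related to them by name. The table held 11 of the 18 names, and 8 passed the filter on low counts. Of these 8, 0 had an adjusted p under 0.05 with edgeR or with DESeq2, and 2 had an unadjusted p under 0.05 with each tool, as did 9.41% of all tested miRNAs with edgeR and 12.4% with DESeq2. Without C-exo replicate 3, 7 of the 8 had an adjusted p under 0.05 with edgeR, and so did 31.3% of the 422 miRNAs tested in that fit. With any other library left out, 0 had one. As C-exo replicate 3 was singled out by its likeness to R-exo in these same counts, nothing is read from the 7. In the other leave-outs the number with an unadjusted p under 0.05 was 1 without R-exo replicate 2 and 0 without C-exo replicate 1, C-exo replicate 2, R-exo replicate 1 or R-exo replicate 3. The log2 fold change was below 0 for 7 and above 0 for 1, with a median of -1.10 against -0.05 over all tested miRNAs. Both that passed at the unadjusted p with edgeR also met the fold criterion, lower in R-exo, as 7.43% of all tested miRNAs did, namely miR-328b-3p and miR-193a-5p.

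miR-328b-3p, the relative of miR-328a-3p, is a short, GC-rich strand with the sequence below.
rno-miR-328b-3p: cUGGCCCUcucugcccua

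It lay at chr14:44016793-44016810 on the plus strand in GRCr8. It had 120, 125 and 53 counts in the control libraries and 29, 60 and 35 in the RIPC libraries, a log2 fold change of -1.58 (SE 0.62, with a Benjamini-Hochberg adjusted p of 0.46 by edgeR). In CPM the groups overlapped, at 7.54 in C-exo replicate 3 against 8.61 in R-exo replicate 2. How the authors' counting divided reads between the miR-328 relatives is not stated, so both values are uncertain to that extent. miR-328a-5p, the opposite arm of miR-328a-3p, had 13, 24 and 5 counts in the control libraries and 6, 0 and 8 in the RIPC libraries, and was not tested.

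miR-193a-5p measured 121, 99.9 and 54.2 CPM across the control libraries, against 49.6, 36.0 and 38.1 CPM across the RIPC libraries. The groups did not overlap, as for 7.92% of all tested miRNAs in this direction, and the log2 fold change was -1.15 (SE 0.46, with a Benjamini-Hochberg adjusted p of 0.46 by edgeR). Its opposite arm miR-193a-3p had a log2 fold change of -0.22 (SE 0.58), with overlapping groups. Of the miR-365 strands, miR-365-5p had a log2 fold change of -1.04 (SE 0.51) and miR-365-3p one of 0.36 (SE 0.69). miR-365-3p varied more in C-exo than in R-exo, with 9.86, 7.17 and 39.4 CPM against 13.2, 28.7 and 30.7 CPM in R-exo. With each library left out in turn, its log2 fold change ranged from 0.02, without C-exo replicate 2, to 1.52, without C-exo replicate 3.

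miR-219a comes from more than 1 hairpin. miR-219a-2-3p resembles miR-219a-1-3p, from which it differs at 7 of 22 positions, and miR-219a-5p is the better known guide strand.
rno-miR-219a-2-3p: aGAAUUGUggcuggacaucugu
rno-miR-219a-5p: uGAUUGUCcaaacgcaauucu

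Both were scarcer than miR-219a-1-3p. miR-219a-2-3p measured 12.3, 8.19 and 3.98 CPM across the control libraries, against 3.08, 4.02 and 3.56 CPM across the RIPC libraries. The groups overlapped through C-exo replicate 3, and the log2 fold change was -1.19 (SE 0.59, with a Benjamini-Hochberg adjusted p of 0.47 by edgeR). miR-219a-5p had 41, 31 and 2 counts in C-exo and 9, 10 and 11 counts in R-exo. The estimate of -1.72 on the log2 scale (SE 0.98) was -2.27 without C-exo replicate 3 and -0.83 without C-exo replicate 1. miR-149-3p had 0 counts in all libraries, which allows at most 0.369 to 0.672 CPM per library, and miR-219b had at most 10 counts.

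GC content could be computed for 363 of the 404 tested miRNAs (89.9%). It was higher in the miRNAs described than in the others, with a median of 63.6% over the 7 with a sequence and 47.8% over the 356 others. Of the others, 111 (31.2%) had at least the 54.2% of miR-423-5p, the lowest of the 7. The fold change moved with GC content among the other miRNAs too. Their median log2 fold change was 0.62 below 40% GC (66 miRNAs), 0.23 from 40% to under 50% (122 miRNAs), -0.33 from 50% to under 60% (119 miRNAs) and -0.94 at 60% and over (49 miRNAs). It was below 0 for 15.2%, 33.6%, 68.1% and 87.8% of the miRNAs in these ranges. Across the 356 miRNAs, which are not independent and share the 6 libraries, Spearman's rho between GC content and log2 fold change was -0.60, and -0.62 without C-exo replicate 3.

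**Figure D3:**
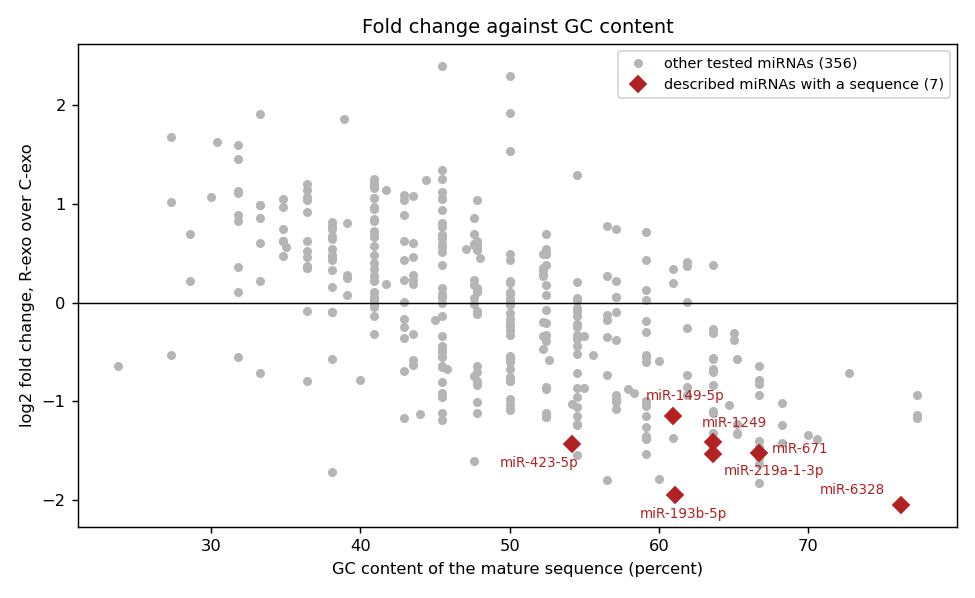
Log2 fold change of R-exo over C-exo against the GC content of the mature sequence for the 363 tested miRNAs with a sequence, with 7 of the miRNAs described as red diamonds and 356 others in grey. The grey points slope down from a median of 0.62 below 40% GC to -0.94 at 60% and over, and the red points lie at the GC-rich, lower end.

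The same gradient separated the libraries rather than only the groups. For the 49 other miRNAs at 60% GC and over, the median log2 CPM relative to the C-exo mean was 0.59, 0.10 and -0.78 in C-exo replicates 1, 2 and 3. It was -0.55, -0.77 and -0.82 in R-exo. For the 66 below 40% it was -0.48, -0.39 and 0.94 in C-exo and 0.65, 0.98 and 0.71 in R-exo. C-exo replicate 3 thus lay at the level of the R-exo libraries at both ends. Over reads of miRNAs with a RefSeq sequence, the miRNAs described left out, the mean GC content was 49.3%, 48.5% and 46.2% in C-exo and 46.7%, 46.2% and 46.0% in R-exo. The miRNAs with a sequence held 68.5%, 77.2% and 86.1% of all counts in C-exo and 86.9%, 87.0% and 86.8% in R-exo, so this mean leaves out more of the reads in C-exo replicates 1 and 2. Among those left out was miR-486.

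**Figure D4:**
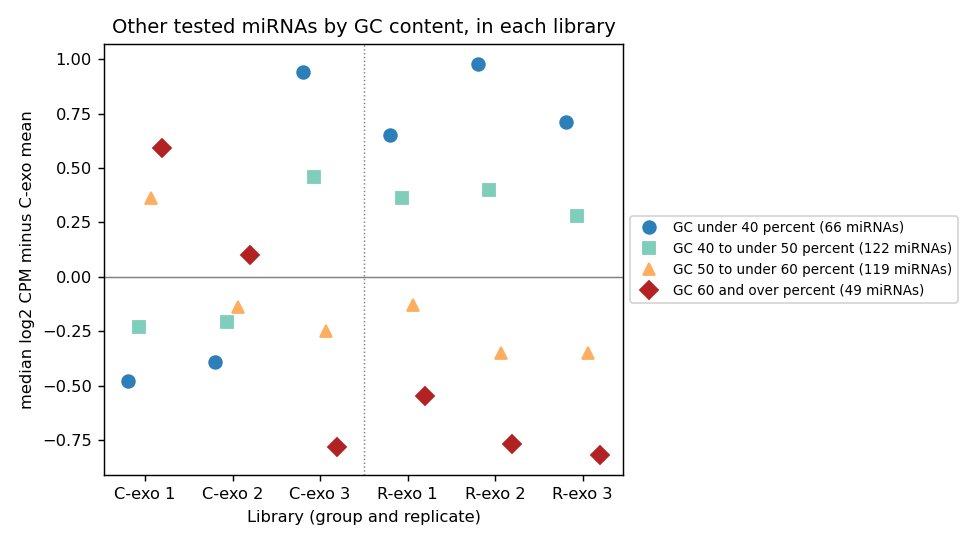
Median log2 CPM relative to the C-exo mean in each library, for tested miRNAs other than the 9 in 4 ranges of GC content. In C-exo replicates 1 and 2 the GC-rich miRNAs are uppermost, at 0.59 and 0.10, and in C-exo replicate 3 and the R-exo libraries they are lowest, from -0.82 to -0.55.

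With the smooth trend of log2 CPM on GC content removed from each library, an analysis chosen after the trend was seen, all 7 stayed lower in R-exo but by less. Their median log2 fold change went from -1.52 to -0.61. miR-193b-5p and miR-423-5p kept the most, at -1.18 (SE 0.49) and -1.04 (SE 0.42). miR-671 was at -0.72, and miR-219a-1-3p, miR-149-5p and miR-1249 were at -0.61, -0.60 and -0.59. miR-6328, the most GC-rich, changed most, from -2.05 to -0.49 (SE 0.36). The fold and p criterion was then met by 2 of the 7, and in the same direction by 16 of the 363 miRNAs (4.41%). Among the opposite arms and relatives, miR-328b-3p went to -0.57 and miR-193a-5p to -0.81, both under the fold criterion. miR-365-5p went to -0.18, miR-193b-3p to -0.29 and miR-193a-3p to -0.19, and miR-365-3p turned from 0.36 to -0.31. miR-219a-5p and miR-219a-2-3p moved further below 0, to -2.72 and -1.5. Of the 8 relatives, 3 had an unadjusted p under 0.05 with edgeR in this fit, as did 6.34% of the 363 miRNAs, and 0 had an adjusted one. The correction also removes any difference between groups that follows GC content, and the source of the trend was not tested.

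**Figure D5:**
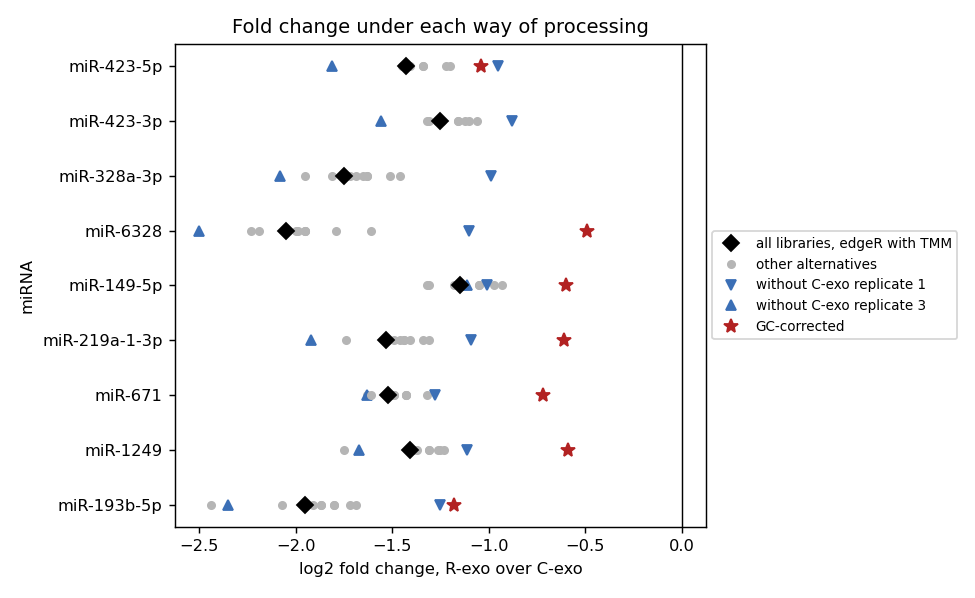
Log2 fold change of R-exo over C-exo for each of the 9 miRNAs with all libraries (black diamond), without C-exo replicate 1 or 3 (blue triangles), after GC correction (red star, 7 miRNAs) and under the other alternatives (grey). Every symbol lies below 0, and the smallest differences are those after GC correction, down to -0.49 for miR-6328, or those without C-exo replicate 1.

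Markers of cells that feed plasma vesicles were summed in each library. Liver miRNAs (4 miRNAs, including miR-122-5p) ranged from 79866 to 109252 CPM in C-exo and from 76441 to 81304 CPM in R-exo. miR-192-5p held 37.5% to 64.2% of this sum. The 3 tested liver markers differed, with log2 fold changes of -0.65 for miR-122-5p, -0.01 for miR-192-5p and 0.56 for miR-194-5p. Red cell miRNAs (5, including miR-451-5p) ranged from 69911 to 198165 CPM in C-exo and from 44964 to 75813 CPM in R-exo. Between 89.7% and 98.8% of this sum in each library was miR-486, which measured 195795, 89943 and 64399 CPM across the control libraries, against 40875, 68033 and 57599 CPM across the RIPC libraries. miR-486 was highest in C-exo replicate 1, as were all 9 of the miRNAs described. The other 4 red cell markers had a log2 fold change above 0, and miR-451-5p was lowest in C-exo replicate 1, at 2023 CPM. Leukocyte and platelet miRNAs (4) summed to 5001, 3553 and 21385 CPM across the control libraries, against 11778, 26859 and 11448 CPM across the RIPC libraries. C-exo replicate 3 lay within the R-exo range for this sum, and C-exo replicates 1 and 2 below it. miR-142-5p held 48.9% to 91.8% of the sum. Striated muscle miRNAs (7) ranged from 2151 to 9820 CPM in C-exo and from 1805 to 5972 CPM in R-exo. Neuronal miRNAs (6) ranged from 11849 to 46045 CPM in C-exo and from 12287 to 28502 CPM in R-exo. The neuronal sum was almost wholly miR-128-3p, which held 99.1% to 99.8% of it. Every marker had at least 1 count in some library. None of the tested markers had an adjusted p under 0.05 with edgeR, and 2 red cell markers, miR-144-3p and miR-144-5p, met the fold and p criterion, both higher in R-exo, as did 1.98% of all tested miRNAs (8 of 404). The part of these sources in the levels of the 9 miRNAs was not tested.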

How the data were processed

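Small RNA libraries from plasma exosomes came from 3 control (C-exo) and 3 RIPC (R-exo) samples on an Illumina HiSeq instrument. The authors deposited raw counts of reads per mature rat miRNA, not normalized and not pooled. The submitters' processing notes name bcl2fastq, BWA and rn6, without versions or roles. How adaptors were trimmed, which miRNA database was used and how multi-matching reads were counted are not given in the sources used here. Groups and replicate numbers were taken from the labels. The 763 deposited miRNAs, of which 598 had any count, were filtered with edgeR's filterByExpr (minimum count 10, minimum total 15), scaled by TMM and fitted with edgeR's quasi-likelihood test (R 4.3.3, edgeR 4.0.16), with the group as sole factor and p-values of the 404 tested miRNAs adjusted by Benjamini-Hochberg. Standard errors came from the fold change and its F statistic, and log2 CPM used a prior count of 2. No pair of libraries agreed within sampling noise. Mature sequences were those of RefSeq (GRCr8). The miRNAs and lists were chosen with earlier results of these data known. Named are the 9 miRNAs, a list of opposite arms and relatives with every miRNA sharing a seed, and the 5 most like miR-423-5p. For GC correction, a lowess curve (span 0.5) of log2 CPM deviation on GC content in each library was used as an offset. The alternatives were RLE factors, library size only, no filter, DESeq2 1.42.0, each library left out, the replicate number as a block and GC correction. Figures were drawn with matplotlib 3.10.9.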

Additional observations from a re-analysis of the deposited data

How the results depend on the processing

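All 9 miRNAs had a log2 fold change below 0 under every alternative that tested them, and with all libraries and no GC correction their median lay between -1.52 and -1.32. It was -0.61 for the 7 with GC-corrected offsets and ranged from -1.81 to -1.09 with each library left out. With each library left out, 2 to 9 of the 9 met the fold and p criterion, 15 to 182 of the tested miRNAs met it, 7 to 82 of them lower in R-exo, and 0 to 132 had an adjusted p under 0.05 (edgeR), the 132 without C-exo replicate 3. Among the relatives 0 to 7 had one, again 7 without C-exo replicate 3. That library was singled out by these same counts, so nothing is read from the 132 or the 7. The difference between the log2 arm ratios of miR-423 ranged from -0.24 to 0.02. The log2 fold change of miR-193a-3p ranged from -0.57 to 0.05 with each library left out and turned positive without C-exo replicate 2, and that of miR-365-3p reversed to -0.31 with GC correction. The cause was not tested. With library size only, 15 miRNAs were called lower in R-exo against 30, and the median of all tested miRNAs rose by 0.15 on the log2 scale. The criterion was then met by 8 of the 9 and not by miR-149-5p, at a log2 fold change of -0.97. Without the filter 63 met the criterion, against 38. With GC correction 21 met it, 16 lower in R-exo, with 2 of the 7. With the replicate block, 13 were called lower in R-exo and 5 of the 9 met the criterion. Counts of the 9 that met the criterion reuse the values that picked them, and nothing is read from them. With library size only and with the replicate block, 1 of the 8 relatives had an unadjusted p under 0.05 (edgeR). The shares of all tested miRNAs were 8.17% and 9.41%. The labels link same-numbered libraries by the number alone. These libraries come from different rats, and whether they share a batch is not stated. Their deviations correlated at 0.329, -0.275 and 0.279. Counts near 30, as for miR-193b-5p, limit what these depths can show.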
